A study of Homo sapiens with 42 samples.

Results

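The genes described here are 35 members of the MYC network and of ribosome biogenesis, taken by symbol from the gene tables of 5 human B-cell acute lymphoblastic leukemia (B-ALL) lines. They were 35 of 57820 genes listed for Reh and 697 and 35 of 57793 listed for RS411, RCH and SEM. The set holds 7 members of the MYC network (MYC, MYCN, MAX, MXD1, MXD3, MXD4 and MNT), 3 growth targets (CAD, ODC1 and TFRC) and 25 factors that make ribosomes. Members were chosen by name, when earlier results of these data were known. MYCN was too low to test in 697, RS411 and SEM, so 34 members were tested there and all 35 in Reh and RCH.

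NSD2, a histone H3 lysine methyltransferase, was overexpressed in 2 of the lines and targeted with hairpins in 3, and RNA was sequenced in 42 libraries. Reh and 697 cells carried the mutant NSD2 (EK, the E1099K protein change), wild-type NSD2 (WT) or an empty vector (EV), with 2 libraries per arm in Reh and 3 in 697. RS411 (RS4;11), RCH (RCH-ACV) and SEM cells carried the hairpin sh2, the hairpin sh5 or a non-targeted control (NT), with 3 libraries per arm. The series description names sh2 as the NSD2 knockdown, and sh5 appears only in sample titles. All lines were grown in RPMI1640 medium with serum. The labels do not describe the vectors or their promoters, nor whether a line was a clone, and nothing in the labels says that replicates came from separate cultures, so p-values measure the spread between these libraries, which may be technical.

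MYC is a transcription factor that pairs with MAX and binds E-boxes (CACGTG) near genes of growth and metabolism. MXD1, MXD3, MXD4 and MNT compete with MYC for MAX and repress through the same sites, and MYCN is a MYC relative of neural and early tissues. Ribosome biogenesis genes are among the best known MYC targets: RNA polymerase I makes the precursor rRNA, small nucleolar ribonucleoproteins (snoRNPs) modify and guide its cutting, and separate sets of factors assemble the small and large subunits.

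Library totals lay between 23688482 and 27244031 reads in Reh, 40664735 and 57179806 in 697, 27826387 and 67796769 in RS411, 21941718 and 55001132 in RCH, and 32583013 and 39562010 in SEM. Of 12 B-lineage markers, 10 to 12 were above 1 CPM (counts scaled to a common library size) in every arm. NSD2 was called higher in EK and WT cells than in EV cells, by 1.54 and 1.55 on the log2 scale in Reh and by 3.14 and 3.26 in 697. The Reh calls were lost without EV replicate 1 or 2. They were also lost without EK replicate 1 for EK and without either WT library for WT. The log2 changes in these fits, with 1 library left in an arm, lay between 1.40 and 1.59. With the compared arms alone edgeR lost the EK call too (adjusted p = 0.0518). By the edgeR fit of each line NSD2 was called lower in SEM only, by a log2 change of -0.99 with sh2 and -1.28 with sh5. In RS411 (-0.71 with sh2 and -0.83 with sh5) and RCH (-0.77 and -0.80) every hairpin library lay below every NT library, but the change was not called. DESeq2 called it in RS411 with sh2 and sh5 (adjusted p = 0.00540 and 0.00110) and in RCH with sh2 (adjusted p = 0.0208), and so did edgeR without sh2 replicate 3 for sh2 in RS411 (0.00147) and RCH (0.0387). Other edgeR settings called NSD2 in RS411 with sh5 (compared arms alone, adjusted p = 0.0228) and in RCH with sh2 (replicate block, 0.00926). With no low-count filter it was called in RCH with sh2 and sh5 (adjusted p = 3.25e-05 and 0.000165). A joint edgeR fit of the hairpin lines called NSD2 lower with sh2 (log2 -0.81 ± 0.11, adjusted p = 7.58e-05) and sh5 (-0.97 ± 0.07, 1.81e-07). Its difference between lines was not called (adjusted p = 0.703 and 0.348). In bulk RNA, fewer cells of a type and less RNA per cell cannot be told apart. Below, a call is an adjusted p under 0.05 over all genes tested in a comparison, from edgeR's quasi-likelihood test of counts or, for 697, limma on log2(normalized count + 1). Levels are CPM, or the authors' normalized counts for 697, and ± gives the standard error of a log2 fold change or the SD of a mean.

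Members were called in the hairpin lines and in no NSD2 overexpression arm. In SEM, sh2 raised 14 of 34 members and lowered none, where 27.9% of all genes were called and 13.5% were called higher. With sh5 in SEM 5 of 34 were called, all higher, where 21.3% of all genes were called and 11.1% were called higher. In RS411, 1 member (MXD1) was called with sh5, where 0.478% of genes were called, and 0 with sh2, where 1.67% were called and 2 members had an unadjusted p under 0.05. In RCH, edgeR called 0 members with sh2, where 1.37% of genes were called and 13 members had an unadjusted p under 0.05, and 0 with sh5, where 0.0229% were called and 0 members had such a p. In Reh 0 members were called with EK or WT, where 0.213% and 0.219% of genes were called and 0 members had an unadjusted p under 0.05. In 697 limma called 0 members with EK or WT, where 0.172% and 0.19% of genes were called, and 1 member (ODC1, with EK) had an unadjusted p under 0.05. Between EK and WT 0 genes and 0 members were called in Reh or 697, and 0 members had an unadjusted p under 0.05.

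**Figure D1:**
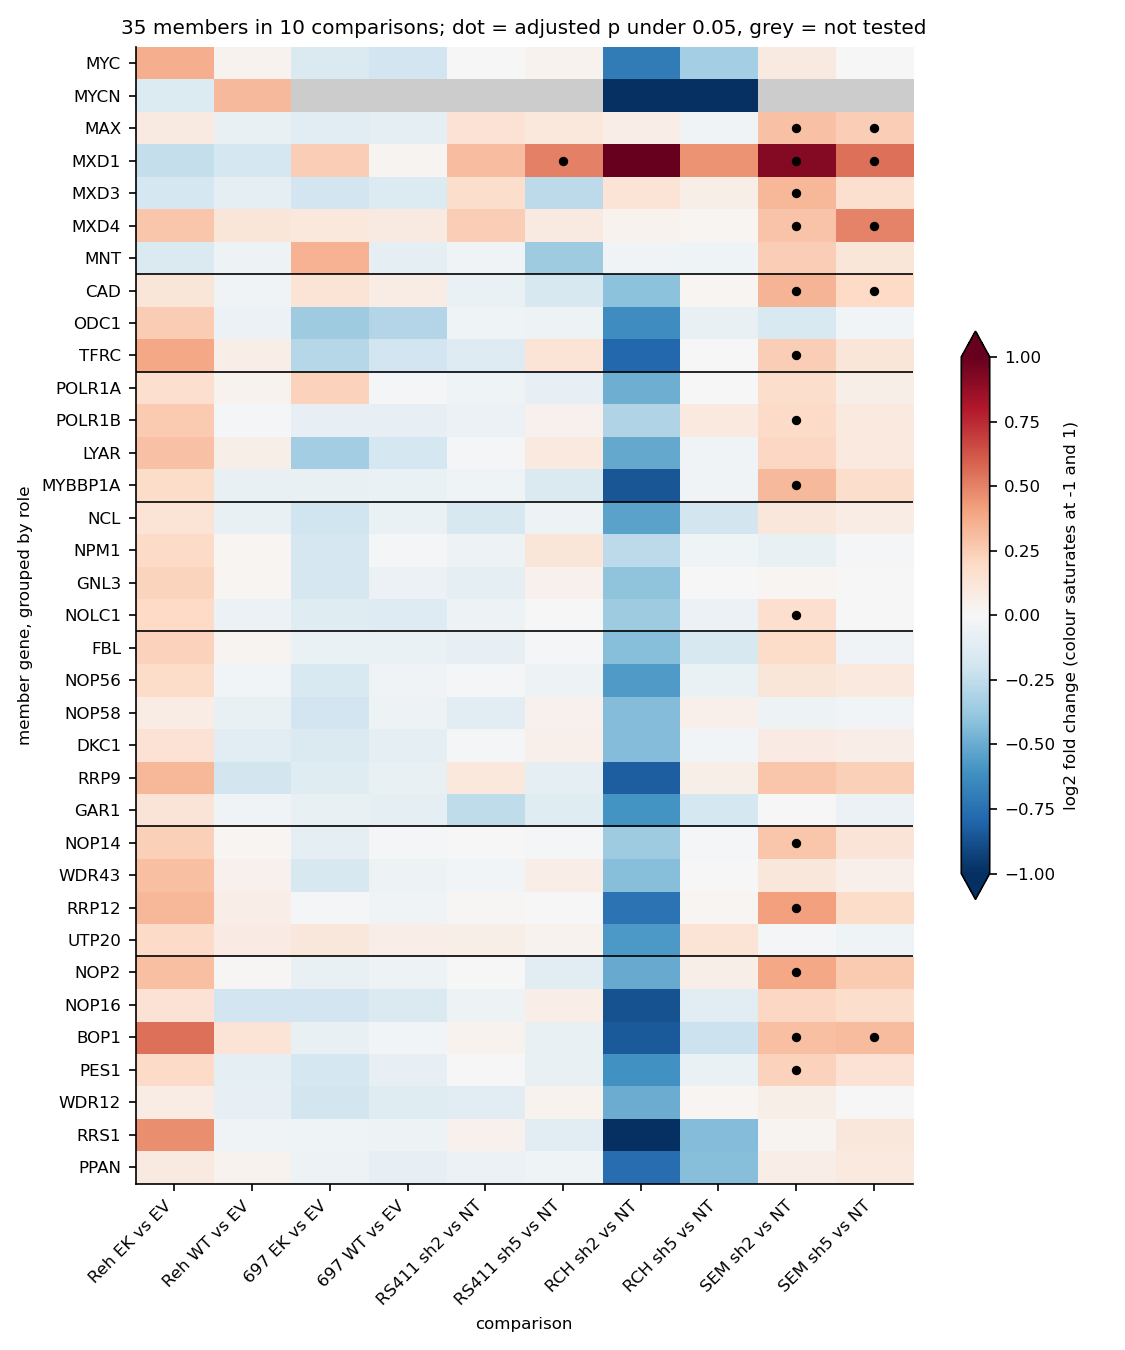
Log2 fold change of each member against EV or NT in the 10 comparisons, with members in rows by role and comparisons in columns; dots show an adjusted p under 0.05, grey was not tested, and the colour scale ends at -1 and 1. MXD1 was above 0 in all 6 hairpin comparisons, the RCH sh2 column held 25 biogenesis members below 0, and the SEM sh2 column held 14 called members.

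In control cells, MYC averaged 253 CPM in Reh EV, 724 in 697 EV, 450.3 in RS411 NT, 652 in RCH NT and 506 in SEM NT cells. The tables were normalized line by line, so these levels are a description. Ranked by CPM per kilobase of exon within each line, MYC was 3rd to 5th of the 35 members. NCL (nucleolin, a nucleolar RNA-binding protein) ranked 1st or 2nd, and NPM1 (nucleophosmin, a nucleolar chaperone) 1st to 3rd. MXD1 ranked 31st to 35th, with means between 2.18 CPM in RCH NT and 15.8 CPM in Reh EV cells. The range of control means was wider for MXD3 (26.7 CPM in RS411 NT to 137 in Reh EV) than for MAX (64.2 in SEM NT to 82.7 in 697 EV). Reads of NPM1 may be shared with its processed pseudogenes and those of PPAN with the read-through gene PPAN-P2RY11, so their values are uncertain.

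MXD1, which pairs with MAX to repress MYC sites, was above NT under both hairpins. All libraries of both hairpins were above all NT libraries in all 3 lines, in 6 of 6 comparisons, and 3 of these were called. Of 14965 genes tested in all 3 lines, 32 (0.214%) had every hairpin library above every NT library in each line. In single comparisons this share was 10.9% with sh2 and 10.6% with sh5 in RS411, 13% and 3.97% in RCH, and 19.3% and 18.3% in SEM. The stretch of the genome just upstream of the MXD1 start is shown because the results turn on this gene, with each GGGCGG (a GC box, read on either strand) in capitals; RefSeq, build GRCh38.p14, chr2:69914959-69915108, plus strand.
MXD1 upstream: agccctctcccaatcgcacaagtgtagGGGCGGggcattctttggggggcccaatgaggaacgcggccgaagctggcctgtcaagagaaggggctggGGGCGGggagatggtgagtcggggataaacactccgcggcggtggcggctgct
It holds no CACGTG, and GGGCGG lay in the 250 bases before the start of 22 of the 29 members with a RefSeq promoter sequence (75.9%), against 42.3% of all 27305 such windows.

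In SEM, MXD1 had 15.7, 18.7 and 17.1 CPM with sh2, 14.5, 12.7 and 12.7 CPM with sh5, and 9.09, 8.63 and 9.53 CPM with NT. All sh2 libraries were above all sh5 libraries, and these above all NT libraries. MXD1 rose 1.88-fold with sh2 (log2 0.91 ± 0.10, adjusted p = 4.17e-06) and 1.47-fold with sh5 (log2 0.55 ± 0.10, adjusted p = 0.000858). The 2 hairpins differed, by 0.36 ± 0.10 on the log2 scale (adjusted p = 0.0205), where 12.4% of all genes were called and MXD1 was the 1 member called. That last call was lost without sh2 replicate 2 or 3, or without sh5 replicate 2 or 3 (adjusted p between 0.0616 and 0.108).

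In RS411, MXD1 had 16.0, 15.7 and 14.4 CPM with sh2, 18.0, 17.7 and 17.1 CPM with sh5, and 12.4, 13.4 and 11.4 CPM with NT. Here the sh5 libraries were the highest, and no hairpin library overlapped NT. MXD1 rose 1.42-fold with sh5 (log2 0.50 ± 0.10, adjusted p = 0.0426). It was 1.24-fold higher with sh2 (log2 0.31 ± 0.10, adjusted p = 0.115), which was not called. The sh5 call was lost when any 1 of the 6 libraries was left out (adjusted p between 0.102 and 0.201). Same-numbered RS411 libraries deviated together, and with the replicate number as a block MXD1 was called with sh5 (adjusted p = 0.00196) and with sh2 (log2 0.31, adjusted p = 0.0186), where 5.41% and 14.5% of all genes were called with the block. Markers of erythroid and megakaryocytic cells summed to 4.78 to 10.6 CPM in RS411 sh2, against 24.03 to 26.7 CPM in NT, with 1 of 7 above 1 CPM in each and GATA1 and PF4 at 0 in both; their part in the RS411 values was not tested.

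Of the 3 hairpin lines, RCH had the lowest MXD1 level and, with sh2, the largest fold change. MXD1 had 6.27, 4.89 and 3.68 CPM with sh2, 3.47, 2.80 and 2.64 CPM with sh5, and 2.25, 2.26 and 2.04 CPM with NT. The 3 arms did not overlap. MXD1 was 2.26-fold higher with sh2 (log2 1.18 ± 0.26), at an adjusted p of 0.0544, and 1.36-fold higher with sh5 (log2 0.45 ± 0.26, adjusted p = 1.0), so neither was called. The sh2 difference was called without sh2 replicate 3 (log2 1.35, adjusted p = 0.0244) and by DESeq2 (adjusted p = 0.000551).

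**Figure D2:**
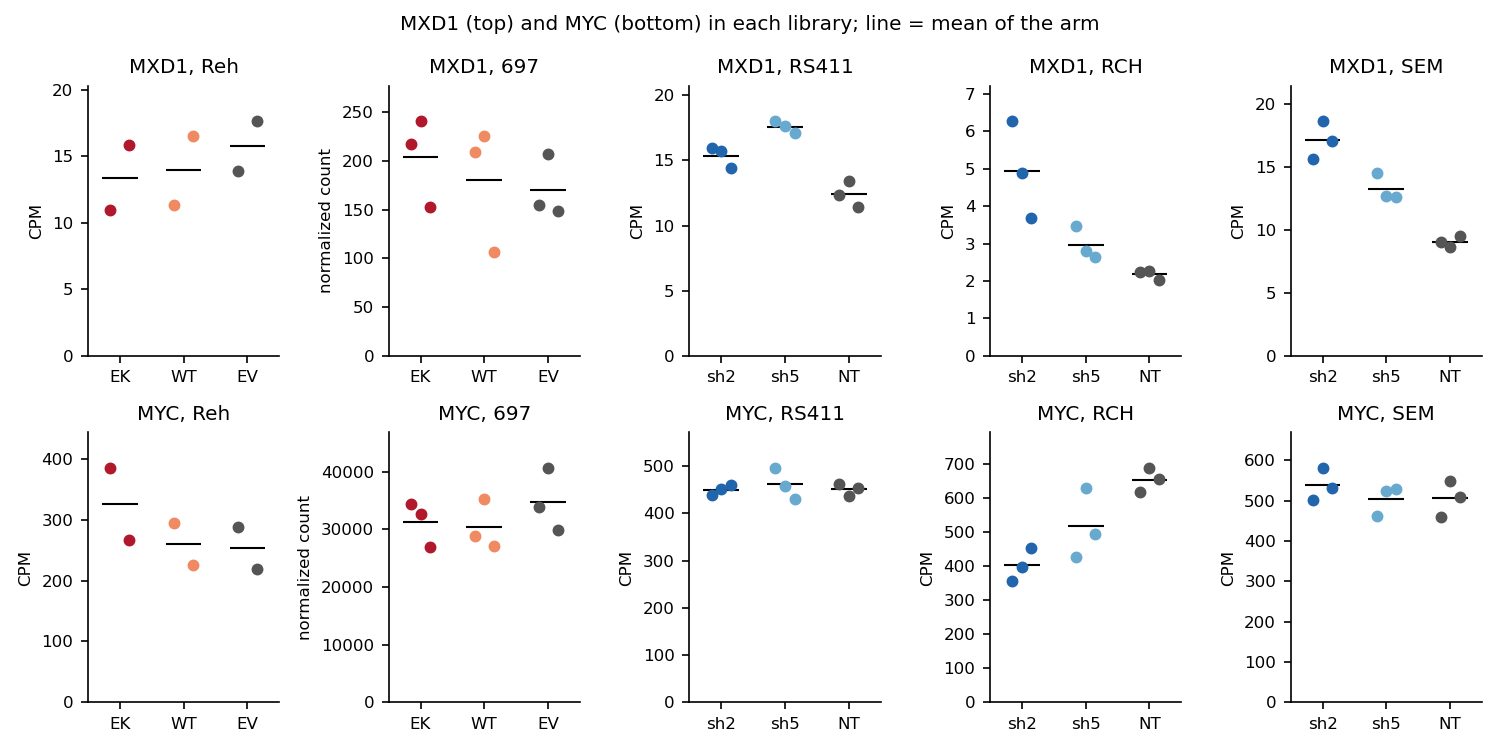
Level of MXD1 and MYC in each library, by line and arm, with EK, WT and EV or sh2, sh5 and NT from left to right; each point is 1 library and each short line the arm mean, in CPM or, for 697, the authors' normalized counts. MXD1 points of both hairpins sit above the NT points in RS411, RCH and SEM, while MYC points of sh2 sit below NT in RCH alone.

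The overexpression arms gave no such pattern. In Reh, MXD1 had 10.9 and 15.8 CPM with EK, 11.4 and 16.5 with WT, and 13.9 and 17.6 with EV. In 697, it had 217.1, 240.7 and 152.9 normalized counts with EK, 209.2, 225.1 and 106.8 with WT, and 155.1, 207.0 and 148.6 with EV. The groups overlapped in both lines. The log2 change was -0.24 ± 0.26 with EK and -0.18 ± 0.26 with WT in Reh, and 0.25 ± 0.30 and 0.03 ± 0.30 in 697, none of them called.

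A joint edgeR fit of the 3 hairpin lines gave the mean response across lines. With sh2, MXD1 rose by 0.81 ± 0.09 on the log2 scale (adjusted p = 9.51e-06), where 14.9% of 19573 genes were called. MAX rose by 0.18 ± 0.05 (adjusted p = 0.0220) and MYC fell by 0.20 ± 0.06 (adjusted p = 0.0208), the other members called. With sh5, MXD1 was the 1 member called, at 0.51 ± 0.08 (adjusted p = 0.000480), where 5.66% of genes were called. The MXD1 calls held in all 21 alternatives of each joint fit, with a log2 change between 0.75 and 0.87 for sh2 and between 0.46 and 0.55 for sh5. The MAX call was lost without RS411 NT replicate 2, RS411 sh2 replicate 1, SEM NT replicate 1 or SEM sh2 replicate 2, and with no low-count filter (adjusted p between 0.0548 and 0.0720). The MYC call was lost without RCH sh2 replicate 1, SEM NT replicate 2 or SEM sh2 replicate 1 (adjusted p between 0.0506 and 0.0535). With a replicate block in the joint fit, GNL3, NOP58, ODC1, GAR1, NOP16 and WDR12 were also called lower with sh2. MXD4 was called higher with it, with sh2 (adjusted p = 0.0347) and sh5 (0.00430). The adjusted p of the lower ones lay between 0.00612 and 0.0401, and RCH replicate numbers did not pair by the rule. The share of all genes called in the blocked sh2 fit is not given here, so these calls describe single genes and not the set.

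The lines also differed in their sh2 response. The test of the difference between lines, in which 8.37% of genes were called, called 6 members: MYC (adjusted p = 0.00250), PES1 (0.0192), MXD1 (0.0322), TFRC (0.0418), FBL (0.0420) and NOP16 (0.0443). For MXD1 all 3 lines were above 0 and differed in size, with RCH at 1.18, SEM at 0.91 and RS411 at 0.31. Most of these 6 calls changed when a single library was left out: 1 of 35 members was called without RCH NT replicate 2 or 3, and 25 without RCH NT replicate 1. The count of all genes called moved as well, between 1064 and 3865 over the fits with 1 library left out, against 1639 with none left out. The MYC difference was called in all 21 alternatives the PES1 difference in 18, FBL in 12, TFRC in 9, NOP16 in 7 and MXD1 in 6. MXD1, TFRC, FBL and NOP16 were each also lost without RS411 sh2 replicate 1 or SEM sh2 replicate 2, NOP16 when any 1 RS411 library was left out and TFRC when any 1 SEM library was. For sh5, where 2.17% of genes were called, 0 members differed between lines by edgeR, and 3 (MYC, MYCN and MXD4, adjusted p = 0.460, 0.441 and 0.222) had an unadjusted p under 0.05.

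MYC itself was called in no line against EV or NT. In RCH, MYC had 355, 398 and 454 CPM with sh2, 425, 629 and 494 CPM with sh5, and 616, 688 and 653 CPM with NT. Every sh2 library was below every NT library, while sh5 and NT overlapped. MYC averaged 402.1 ± 49.6 CPM with sh2 and 652.3 ± 36.0 CPM with NT (SD, 3 libraries each), a log2 change of -0.70 ± 0.16 (adjusted p = 0.0608), and with sh5 the change was -0.34 ± 0.16 (adjusted p = 1.0); neither was called. The sh2 change was called without sh2 replicate 3 (log2 -0.80, adjusted p = 0.0438) and by DESeq2 (adjusted p = 0.00447). In SEM, MYC had 503, 582 and 531 CPM with sh2, 462, 523 and 529 CPM with sh5, and 459, 549.5 and 509.8 CPM with NT. In RS411, it had 438, 451 and 459 CPM with sh2, 496, 459 and 429 CPM with sh5, and 461, 437 and 453 CPM with NT. The SEM and RS411 arms overlapped, with log2 changes of 0.09 ± 0.08 (sh2) and -0.005 ± 0.076 (sh5) in SEM, and -0.004 ± 0.070 and 0.04 ± 0.07 in RS411. MYC was not called in the overexpression arms either without the replicate block. With the block edgeR called it in Reh with EK (log2 0.36, adjusted p = 0.00749), from 2 libraries per arm. In Reh, MYC had 385 and 267 CPM with EK, 294 and 225 CPM with WT, and 287 and 218 CPM with EV, and replicate 1 was the higher library in each arm. In 697, MYC had 34352, 32672 and 27018 normalized counts with EK, 28889, 35243 and 27176 with WT, and 33942, 40715 and 29864 with EV. The groups overlapped in both lines, and the log2 changes were 0.37 ± 0.23 (EK) and 0.04 ± 0.23 (WT) in Reh, and -0.15 ± 0.15 and -0.19 ± 0.15 in 697.

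MAX, the shared partner of MYC and its competitors, rose in SEM. It had 77.5, 81.9 and 76.7 CPM with sh2, 73.9, 77.8 and 77.3 CPM with sh5, and 61.9, 66.0 and 64.8 CPM with NT, with both hairpins above NT in every library. MAX rose by 0.29 ± 0.06 with sh2 (adjusted p = 0.001001) and by 0.25 ± 0.06 with sh5 (adjusted p = 0.00477) on the log2 scale. In RS411, MAX had 87.2, 84.8 and 82.1 CPM with sh2, 81.7, 82.4 and 82.6 CPM with sh5, and 75.5, 73.2 and 80.8 CPM with NT. No RS411 hairpin library overlapped NT, though neither change was called, at 0.15 ± 0.06 (adjusted p = 0.243) and 0.10 ± 0.06 (adjusted p = 0.576). In RCH, MAX had 92.1, 81.1 and 71.9 CPM with sh2, 68.8, 82.7 and 77.4 CPM with sh5, and 69.0, 85.9 and 79.6 CPM with NT, overlapping throughout. MAX overlapped between each overexpression arm and EV. In Reh it had 80.3 and 73.3 CPM with EK, 71.9 and 65.3 CPM with WT, and 74.6 and 69.8 CPM with EV, and both EK libraries were above both WT libraries. In 697 it had 4309.7, 3112 and 3739 normalized counts with EK, 3762, 3527 and 3902 with WT, and 4107, 3698 and 4136 with EV.

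**Figure D3:**
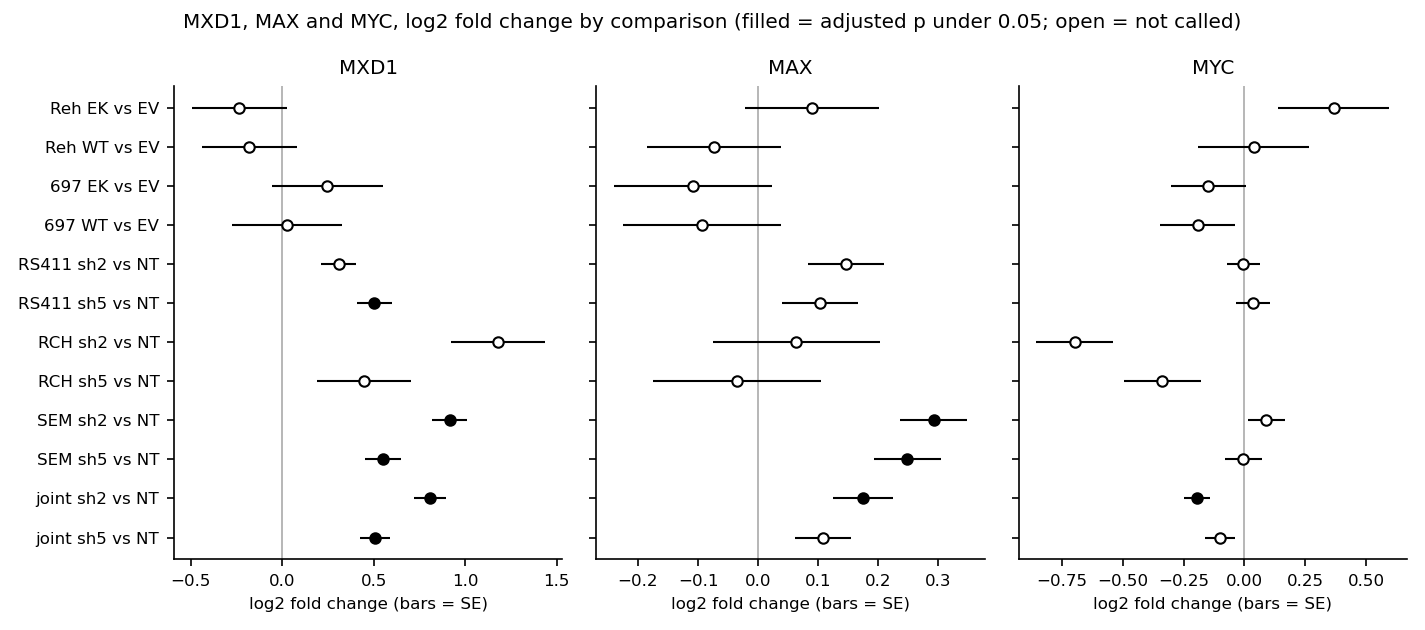
Log2 fold change of MXD1, MAX and MYC against EV or NT in the 10 comparisons within a line and the joint fit of the hairpin lines, with standard errors; filled points have an adjusted p under 0.05. MXD1 is above 0 in all 6 hairpin comparisons and filled in SEM sh2, SEM sh5, RS411 sh5 and both joint rows. MAX is filled in both SEM rows and the joint sh2 row, and MYC in the joint sh2 row alone.

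MXD4, another MAX partner and repressor, rose in SEM with both hairpins. It had 37.1, 40.4 and 38.6 CPM with sh2, 41.3, 46.1 and 47.0 CPM with sh5, and 30.3, 32.9 and 31.8 CPM with NT. Here sh5 was the highest arm, at 0.50 ± 0.07 (adjusted p = 0.000105), and sh2 reached 0.29 ± 0.07 (adjusted p = 0.00595), both against NT on the log2 scale. In RS411, MXD4 had 48.7, 52.6 and 39.1 CPM with sh2, 43.6, 45.4 and 36.6 CPM with sh5, and 38.0, 43.9 and 36.2 CPM with NT, so that the arms overlapped. The RS411 sh2 change was 0.25 ± 0.12 (adjusted p = 0.301), and with the replicate block it was called (adjusted p = 0.0142). In RCH, MXD4 had 39.5, 45.3 and 32.9 CPM with sh2, 35.4, 43.0 and 38.4 CPM with sh5, and 34.4, 37.4 and 43.3 CPM with NT, which overlapped. In Reh it had 32.9 and 34.5 CPM with EK, 32.0 and 28.7 CPM with WT, and 30.1 and 25.7 CPM with EV. Both Reh EK libraries were above both EV libraries, at 0.27 ± 0.13 on the log2 scale (adjusted p = 0.941), which was not called. In 697 MXD4 had 1851, 1417 and 1908 normalized counts with EK, 1611, 1559.5 and 1915 with WT, and 1267, 1580.5 and 1994 with EV, again overlapping.

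MXD3, a repressor of the same family that is expressed in cycling cells, rose in SEM with sh2. It had 35.7, 36.8 and 36.5 CPM with sh2, 31.1, 32.5 and 33.4 CPM with sh5, and 28.7, 28.4 and 29.6 CPM with NT, and the 3 arms did not overlap. The rise was 0.33 ± 0.06 with sh2 (adjusted p = 0.000956), and the sh5 change of 0.16 ± 0.06 was not called (adjusted p = 0.0833) unless the replicate block was used (adjusted p = 0.0316). In RS411, MXD3 had 29.9, 39.4 and 21.4 CPM with sh2, 19.6, 28.5 and 18.7 CPM with sh5, and 22.6, 34.9 and 22.4 CPM with NT. Replicate 2 was the highest RS411 library in each arm, and the arms overlapped. With the replicate block MXD3 differed between sh2 and sh5 in RS411, at a log2 change of 0.43 (adjusted p = 0.00422), in a comparison where 0.577% of genes and 0 members were called without the block and 9.06% of genes with it. TFRC (log2 -0.27, adjusted p = 0.0108) and RRP9 (log2 0.19, adjusted p = 0.0424) were the other members called with it. Without the block 1 member, MNT, had an unadjusted p under 0.05 in that comparison. In RCH, MXD3 had 39.5, 63.6 and 70.0 CPM with sh2, 61.2, 57.6 and 45.2 CPM with sh5, and 54.9, 53.8 and 49.1 CPM with NT, overlapping. In Reh it had 110.0 and 131 CPM with EK, 125 and 129.7 CPM with WT, and 138 and 135 CPM with EV. Both Reh overexpression arms lay below EV, at -0.18 ± 0.12 with EK and -0.10 ± 0.12 with WT, and neither was called. In 697 MXD3 had 1074, 1726 and 1445 normalized counts with EK, 1496, 1711 and 1182 with WT, and 1514, 1918 and 1384 with EV, and the arms overlapped.

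MNT, the broadly expressed MAX-binding repressor, was called in no comparison. In SEM it had 15.6, 15.2 and 15.7 CPM with sh2, 16.3, 13.7 and 12.6 CPM with sh5, and 11.8, 13.1 and 14.3 CPM with NT. The sh2 libraries were all above NT, at 0.25 ± 0.11 (adjusted p = 0.0959). In RS411, MNT had 14.1, 16.9 and 14.4 CPM with sh2, 12.8, 10.7 and 12.7 CPM with sh5, and 16.6, 15.8 and 13.9 CPM with NT. The sh5 libraries were all below NT, at -0.36 ± 0.12 (adjusted p = 0.262). In RCH, MNT had 7.35, 9.89 and 9.36 CPM with sh2, 8.07, 11.2 and 7.26 CPM with sh5, and 6.68, 8.83 and 11.8 CPM with NT. In Reh it had 13.4 and 16.8 CPM with EK, 16.9 and 15.5 CPM with WT, and 16.8 and 16.7 CPM with EV. MNT overlapped between EK and EV in Reh, and between the hairpins and NT in RCH. In 697 the second EK library stood highest: MNT had 589.7, 1554 and 1052 normalized counts with EK, 667, 882 and 661 with WT, and 599, 904 and 869.8 with EV, at 0.34 ± 0.31 with EK.

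MYCN was above 1 CPM in Reh and RCH only. In RCH it had 0.0936, 0.390 and 1.46 CPM with sh2, 0.704, 0.614 and 1.31 CPM with sh5, and 2.37, 1.68 and 2.72 CPM with NT. All hairpin libraries were below all NT libraries, and the log2 change was -1.77 ± 0.64 for sh2 (adjusted p = 0.190) and -1.37 ± 0.62 for sh5 (adjusted p = 1.0), neither called. Without sh2 replicate 3 the sh2 change was -3.15 and called (adjusted p = 0.0223). In Reh, MYCN had 1.82 and 3.46 CPM with EK, 3.51 and 3.83 CPM with WT, and 2.41 and 3.43 CPM with EV. The WT libraries lay above EV in Reh, at 0.33 ± 0.35, and the change was not called.

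Promoters of the members with a RefSeq sequence were read for the MYC-MAX site. MYC, NOLC1, NOP58, RRP12, BOP1 and RRS1 had no such sequence. CACGTG, which reads the same on both strands, lay in the 250 bases before the start of 3 of the 29 members with a RefSeq sequence (10.3%), against 6.49% of all 27305 windows. These were MNT, MXD4 and UTP20, and their sites are shown because MNT and MXD4 themselves bind such letters with MAX. CACGTG is in capitals; RefSeq, build GRCh38.p14, at chr17:2401228-2401273 (minus strand), chr4:2262322-2262359 (minus strand) and chr12:101280075-101280104 (plus strand). A match describes the letters alone, and no binding was measured. Sites after the start or further upstream were not searched, so the count does not speak to them.
MNT: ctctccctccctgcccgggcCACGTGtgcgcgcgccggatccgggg
MXD4: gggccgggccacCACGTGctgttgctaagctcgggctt
UTP20: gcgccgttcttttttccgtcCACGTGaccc

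The growth targets moved apart from line to line. CAD starts pyrimidine synthesis, ODC1 makes polyamines and TFRC (the transferrin receptor) takes up iron. In SEM, CAD had 214, 198 and 197 CPM with sh2, 199, 177 and 175 CPM with sh5, and 168, 151 and 161 CPM with NT, and no hairpin library overlapped NT. CAD rose by 0.34 ± 0.06 with sh2 (adjusted p = 0.000874) and by 0.20 ± 0.06 with sh5 (adjusted p = 0.0399). The sh5 call was lost without NT replicate 2 or 3, or sh5 replicate 1 or 2 (adjusted p between 0.0576 and 0.198), and with RLE factors (adjusted p = 0.0501). TFRC in SEM had 727, 738 and 840.3 CPM with sh2, 675, 701 and 742 CPM with sh5, and 623, 599 and 722 CPM with NT. The sh2 libraries were above NT and TFRC rose by 0.25 ± 0.07 (adjusted p = 0.0226), while sh5 overlapped NT. With the block the sh5 change of TFRC was called too (log2 0.13, adjusted p = 0.0354). The sh2 call was lost without NT replicate 1 or 2 or sh2 replicate 3 (adjusted p between 0.0629 and 0.123). In RCH, TFRC had 245, 214 and 156 CPM with sh2, 196, 405 and 467 CPM with sh5, and 303, 369 and 392 CPM with NT. The sh2 libraries were all below NT, at -0.79 ± 0.28 (adjusted p = 0.189), and sh5 overlapped NT. ODC1 was also below NT in every RCH sh2 library, with 467, 469 and 354 CPM with sh2 against 509, 782 and 689.9 CPM with NT, at -0.62 ± 0.24 (adjusted p = 0.216). In 697, ODC1 had 47207, 38601 and 43741 normalized counts with EK, 40029, 47350.2 and 47423 with WT, and 65729.6, 54540.0 and 46361 with EV. The third EV library overlapped both other arms, and the changes of -0.35 ± 0.15 with EK and -0.30 ± 0.15 with WT were not called. TFRC in 697 had 37519, 28821 and 39526 normalized counts with EK, 35525, 35275 and 41742 with WT, and 47855, 37237 and 43464 with EV. CAD in 697 had 12015, 14258 and 14855 with EK, 13469, 12663 and 13260.5 with WT, and 11589, 12024 and 13848 with EV. Both overlapped between arms, with TFRC at -0.29 ± 0.15 with EK and CAD at 0.13 ± 0.12 with EK.

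In SEM, the factors around RNA polymerase I were all above 0 with both hairpins. POLR1A and POLR1B are the 2 large subunits of the enzyme, LYAR is a nucleolar regulator of rRNA genes, and MYBBP1A is a nucleolar MYB-binding protein. MYBBP1A had 171, 144 and 144 CPM with sh2, 148, 137 and 129 CPM with sh5, and 133, 117 and 116 CPM with NT. The sh2 libraries were above NT and the rise was 0.33 ± 0.08 (adjusted p = 0.00545), while the sh5 change of 0.18 ± 0.08 was not called (adjusted p = 0.120) but was with the block (adjusted p = 0.00264). POLR1B was also called with sh2, at 0.19 ± 0.06 (adjusted p = 0.0370), and POLR1A was not, at 0.18 ± 0.06 (adjusted p = 0.0505). With the block POLR1A and LYAR were called with sh2 as well (adjusted p = 0.0129 and 0.00598). The POLR1B call was lost without NT replicate 3 or any 1 sh2 library (adjusted p between 0.0587 and 0.164). In RCH, POLR1B had 79.3, 82.8 and 77.6 CPM with sh2, 73.2, 119 and 124 CPM with sh5, and 69.5, 115 and 111 CPM with NT, so that replicate 1 of both sh5 and NT lay below the sh2 libraries. In 697, POLR1A had 8180.2, 10529 and 9083 normalized counts with EK, 8392, 7644 and 7413 with WT, and 8304, 7723 and 7605 with EV, at 0.23 ± 0.12 with EK. LYAR in 697 had 2003, 1268 and 1678 with EK, 1859, 1755 and 1879.8 with WT, and 2458, 1945 and 1836 with EV, at -0.35 ± 0.18 with EK. These 697 arms overlapped and neither change was called.

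With sh2 in SEM, the nucleolar coordinators and the snoRNP core had the lowest median log2 changes among the biogenesis roles, at 0.07 and 0.10. NOLC1, which carries snoRNPs into the nucleolus, rose by 0.16 ± 0.06 with sh2 (adjusted p = 0.0475), the 1 call among NCL, NPM1, GNL3 and NOLC1. It was lost without NT replicate 2 or 3 or any 1 sh2 library (adjusted p between 0.0676 and 0.176), and by DESeq2 (adjusted p = 0.0519). Of the snoRNP proteins FBL, NOP56, NOP58, DKC1, RRP9 and GAR1, 0 of 6 were called with either hairpin by edgeR. Of these, 1 (FBL with sh2) had an unadjusted p under 0.05. With the replicate block FBL, RRP9 and NOP56 were called with sh2 (adjusted p = 0.00839, 0.00211 and 0.0473) and RRP9 with sh5 (adjusted p = 0.00728). RRP9 had the largest sh2 change of the 6, at 0.28 on the log2 scale without the block. It had 47.3, 36.0 and 37.3 CPM with sh2 and 40.0, 31.0 and 28.5 CPM with NT, which overlapped. FBL, the rRNA methyltransferase fibrillarin, had 121, 133 and 135 CPM with sh2, 107, 106 and 121 CPM with sh5, and 116, 103 and 123 CPM with NT in SEM. These overlapped, at 0.18 ± 0.07 with sh2 (adjusted p = 0.0863). In RCH, FBL had 115, 124 and 125 CPM with sh2, 126, 145 and 167 CPM with sh5, and 157, 173 and 159 CPM with NT. Here every FBL sh2 library was below every NT library, at -0.43 ± 0.13 (adjusted p = 0.127), which was not called. In Reh, FBL had 150.5 and 136 CPM with EK, 117 and 132 CPM with WT, and 122 and 122 CPM with EV. The EK libraries were both above EV, at 0.23 ± 0.11 (adjusted p = 0.962), and the change was not called. In RS411, GAR1, a pseudouridylation-guide protein, had 12.5, 13.0 and 17.0 CPM with sh2, 16.1, 15.3 and 15.3 CPM with sh5, and 18.2, 14.0 and 18.5 CPM with NT. NOP58 in RS411 had 135, 127 and 146 CPM with sh2, 156, 146 and 154 CPM with sh5, and 159, 134 and 149 CPM with NT. GNL3 (nucleostemin, a nucleolar GTPase) had 276, 257 and 298 CPM with sh2, 304, 289 and 326 CPM with sh5, and 302, 276 and 314 CPM with NT. The 3 genes overlapped between sh2 and NT in RS411, with sh2 changes of -0.26 ± 0.14, -0.11 ± 0.08 and -0.10 ± 0.08 in the order given, none of them called.

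RRP12 and NOP2, factors of subunit assembly, had the largest sh2 changes among the biogenesis members in SEM. RRP12, an export factor of the small subunit, had 90.9, 74.6 and 75.1 CPM with sh2, 71.5, 69.5 and 64.6 CPM with sh5, and 66.2, 59.2 and 55.6 CPM with NT. The sh2 libraries were above NT and RRP12 rose by 0.41 ± 0.08 (adjusted p = 0.00182), while sh5 (0.18 ± 0.08, adjusted p = 0.144) overlapped NT and was not called. By edgeR the sh5 change was called with the block (adjusted p = 0.00789) and without NT replicate 1 (adjusted p = 0.0405). NOP14, of the small subunit processome, rose by 0.28 ± 0.06 with sh2 (adjusted p = 0.00133), and UTP20 and WDR43 of the same complex were at -0.01 ± 0.08 and 0.11 ± 0.06. With the block WDR43 was called with sh2 (adjusted p = 0.0386) and NOP14 with sh5 (log2 0.13, adjusted p = 0.0329). NOP2, an rRNA cytosine methyltransferase of the large subunit, had 85.6, 75.4 and 70.4 CPM with sh2, 72.5, 76.7 and 63.1 CPM with sh5, and 65.6, 56.1 and 55.5 CPM with NT. NOP2 rose by 0.39 ± 0.09 with sh2 (adjusted p = 0.00563), with no overlap, and the sh5 change of 0.26 ± 0.09 was not called (adjusted p = 0.0577) but was with the block (adjusted p = 0.00133). BOP1, which works with PES1 and WDR12 in the PeBoW complex, had 17.3, 13.9 and 15.5 CPM with sh2, 15.2, 16.7 and 15.3 CPM with sh5, and 13.5, 13.0 and 11.5 CPM with NT. All hairpin libraries were above NT, and BOP1 rose by 0.30 ± 0.10 with sh2 (adjusted p = 0.0345) and by 0.32 ± 0.10 with sh5 (adjusted p = 0.0350). Both BOP1 calls rested on single libraries: the sh2 call was lost without NT replicate 2 or 3 or sh2 replicate 1 or 3 (adjusted p between 0.0600 and 0.163), and the sh5 call without NT replicate 2 or 3 or any 1 sh5 library (adjusted p between 0.0605 and 0.134). PES1 rose by 0.23 ± 0.07 with sh2 (adjusted p = 0.0207; lost without NT replicate 2 or 3 or sh2 replicate 1, adjusted p between 0.0586 and 0.0909), and WDR12 was at 0.06 ± 0.07. NOP16, RRS1 and PPAN, other large subunit factors, were not called with either hairpin. With the block NOP16 was called with sh2 (log2 0.21, adjusted p = 0.00248) and sh5 (log2 0.18, adjusted p = 0.00843), and PES1 with sh5 (log2 0.15, adjusted p = 0.0147).

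The SEM counts depended on how replicates were handled. Same-numbered SEM libraries deviated together, and with the replicate number as a block 22 members were called with sh2, 21 of them higher and ODC1 lower (log2 -0.15, adjusted p = 0.0204), and 14 with sh5, all higher. With the block 37.9% of all genes were called with sh2 and 32.8% with sh5. Between sh2 and sh5 in SEM, 9 members were called with the block, 8 higher with sh2 and MXD4 lower (log2 -0.21, adjusted p = 0.00705), where 20.7% of all genes were called. Without the block and with 1 library left out, 10 to 17 members were called with sh2 and 3 to 11 with sh5, the highest counts coming without NT replicate 1. The sh5 count was 3 without NT replicate 2, NT replicate 3, sh5 replicate 1 or sh5 replicate 2. Cell type markers also moved in SEM. The 9 myeloid markers summed to 42.9 to 58.1 CPM with sh2 and 48.4 to 62.6 CPM with sh5, against 20.1 to 27.1 CPM with NT, with 4 of 9 above 1 CPM in each arm and FCGR3A at 0. The 12 B-lineage markers summed to 1657 to 1706 CPM with sh2 and 1649 to 1785 CPM with sh5, against 1837 to 2023 CPM with NT. The 8 stromal and epithelial markers summed to 155 to 162 CPM with sh2 and 144 to 165 CPM with sh5, against 105 to 129 CPM with NT. Of these 8, however, 4 were above 1 CPM with NT and 2 with each hairpin, so the list did not move as a whole. The part of the cell type markers in the changes of the members was not tested.

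Taken as a group of 25, the ribosome biogenesis members lay on different sides of 0 in different lines. In RCH with sh2, 0 of 25 were above 0, with a median log2 change of -0.51 and a range of -1.21 to -0.26, while 48.3% of all genes were above 0. RRS1, a factor of 5S ribonucleoprotein docking, had the most negative value: 10.8, 15.2 and 9.44 CPM with sh2, 9.08, 29.7 and 22.2 CPM with sh5, and 12.1, 32.2 and 37.8 CPM with NT. The first NT and the first sh5 library of RCH were as low as the sh2 libraries. None of the 25 was called (lowest adjusted p = 0.127), and 8 had an unadjusted p under 0.05. By role the median was -0.76 for large subunit factors, -0.50 for the small subunit, -0.50 for the snoRNP core, -0.50 for RNA polymerase I and -0.38 for nucleolar coordinators. In all 12 alternatives 0 of 25 were above 0, with medians between -0.74 and -0.40.

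With sh5, RCH did not show this. There 9 of 25 were above 0, with a median of -0.03, and leaving out single libraries moved the count between 0 (without NT replicate 1) and 21 (without sh5 replicate 1), with medians of -0.22 and 0.20. UTP20, which scaffolds the small subunit processome, had 45.9, 98.3 and 86.3 CPM with sh5 and 39.4, 74.2 and 95.6 CPM with NT. PPAN, a large subunit factor, had 3.95, 7.60 and 7.70 CPM with sh5 and 6.51, 8.79 and 10.5 CPM with NT. Both overlapped, at 0.14 ± 0.32 for UTP20 and -0.42 ± 0.31 for PPAN, and were not called. The direct comparison of sh2 and sh5 in RCH had 0 of 25 above 0, with a median of -0.49, but 0 genes were called in it by edgeR, and 6 members (MYC, MXD1, ODC1, TFRC, PES1 and WDR12) had an unadjusted p under 0.05.

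Single libraries carried much of the spread in RCH. The mean deviation of the 25 members from the line mean was -0.40, -0.14 and -0.43 with sh2, -0.46, 0.47 and 0.37 with sh5, and -0.32, 0.43 and 0.48 with NT, on the log2 scale. The first sh5 and the first NT library thus sat with the sh2 libraries, and the highest library was 1.92-fold above the lowest. Without these 2 libraries 29 members were called in the sh2 comparison, where 17.9% of all genes were called. This alternative was chosen after these same values were seen and supports nothing on its own. Proliferation genes moved alongside, at -0.22 to -0.14 with sh2 and -0.20 to 0.24 with sh5, against -0.02 to 0.24 with NT. The 10 T and NK markers summed to 135 to 281 CPM with sh2 and 127 to 147 CPM with sh5, against 95.2 to 131 CPM with NT, with 3 of 10 above 1 CPM in each arm and CD3D, CD3E and CD2 at 0. The 9 myeloid markers summed to 13.7 to 20.6 CPM with sh2 and 20.6 to 29.4 CPM with sh5, against 23.0 to 27.9 CPM with NT. They did not move as a whole, with 4 of 9 above 1 CPM with each hairpin and 2 with NT. Of the 4 tested with sh2, 2 were above 0 and 2 below (log2 -1.06 to 1.65), and 0 were called by edgeR. The part of these in the RCH values was not tested.

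**Figure D4:**
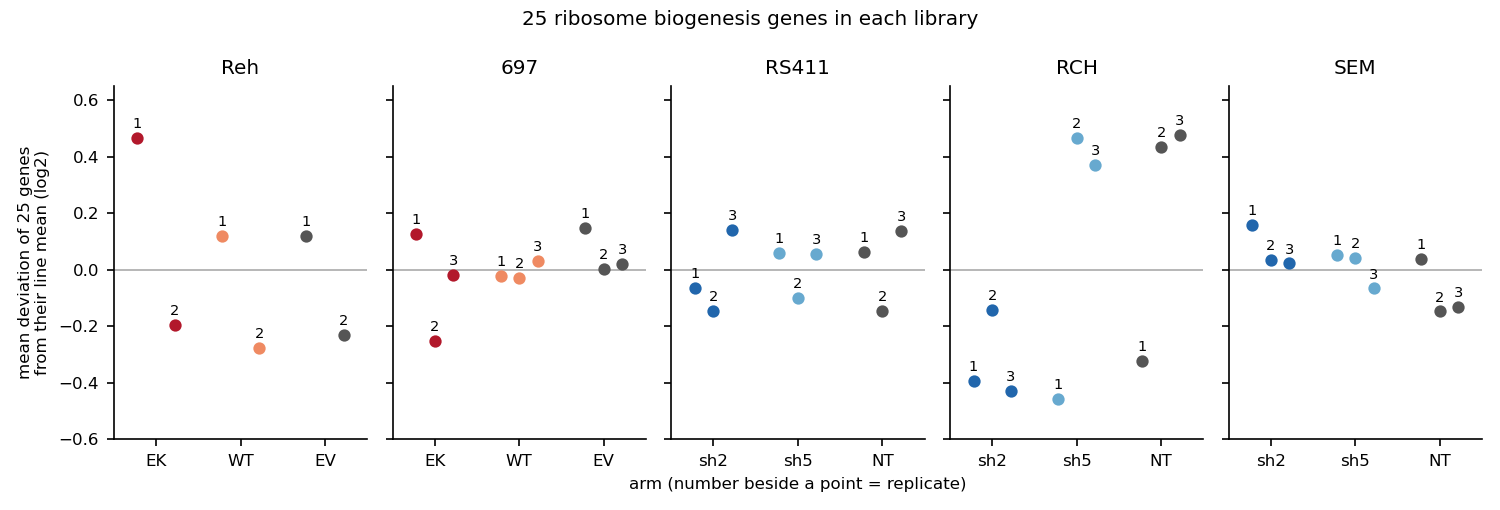
Mean deviation of the 25 ribosome biogenesis members from the line mean (log2) in each library, by line and arm, with EK, WT and EV or sh2, sh5 and NT from left to right; each point is 1 library, numbered by replicate. In RCH the 3 sh2 libraries lie at or below -0.14 and 1 library each of sh5 and NT lies with them, and in Reh the replicate 1 libraries lie above the replicate 2 libraries.

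In Reh with EK, 25 of 25 biogenesis members were above 0, with a median of 0.19, where 53.3% of all genes were above 0 and 0 members were called. BOP1 had 10.1 and 6.88 CPM with EK, 7.31 and 5.38 CPM with WT, and 6.58 and 5.00 CPM with EV, at 0.55 ± 0.27 with EK (adjusted p = 0.963). With the replicate block edgeR called BOP1 with EK (log2 0.55, adjusted p = 0.0313). The direction of the 25 turned without EK replicate 1. Without that library 3 of 25 were above 0, with a median of -0.18, and without EK replicate 2 it was 24 of 25, with a median of 0.49. The library means were 0.47 and -0.20 with EK, 0.12 and -0.28 with WT, and 0.12 and -0.23 with EV. Replicate 1 was thus higher in each arm, and leaving out 1 library set unequal replicate numbers against each other. With the replicate block 25 of 25 were above 0 with EK (median 0.18), from 2 libraries per arm. Reh WT had 12 of 25 above 0, with a median of -0.01. Leaving out 1 library moved this between 3 (without EV replicate 2 or WT replicate 1) and 24 (without EV replicate 1). With the replicate block it was 11 of 25, with a median of -0.01.

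In 697, 2 of 25 were above 0 with EK (median -0.12) and 1 of 25 with WT (median -0.06), where 45.6% and 48.8% of all genes were above 0. Without EK replicate 2 the EK count was 10 of 25 (median -0.03), and without EV replicate 1 the WT count was 9 of 25 (median -0.03). Without any other single 697 library the count was 2 to 4 with EK and 1 to 5 with WT. UTP20, the 1 member above 0 with WT, had 7040.1, 4959.9 and 6895 normalized counts with EK, 6737, 5072 and 6426 with WT, and 6196, 5095 and 6042 with EV, and overlapped between arms. The second EK library was the lowest for the 25 members, at -0.25 against -0.03 to 0.15 in the other 8. It also had the highest share of mitochondrially encoded reads, 0.621% against 0.202% to 0.346%, and the part of this in the 697 values was not tested.

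SEM ran the other way from RCH with sh2, with 21 of 25 above 0 (median 0.16) and 8 called, where 50.8% of all genes were above 0 and 27.9% were called. With sh5 in SEM 20 of 25 were above 0 (median 0.09) and 1 was called, where 48.8% of all genes were above 0 and 21.3% were called. The count called ran from 5 to 12 with sh2 and from 0 to 7 with sh5 when 1 library was left out, the highest without NT replicate 1. The 1 sh5 call, BOP1, was lost without NT replicate 2 or 3 or any 1 sh5 library. Without sh5 replicate 3 edgeR called NOP2 in its place (adjusted p = 0.0223). In RS411, 7 of 25 were above 0 with sh2 (median -0.04) and 11 with sh5 (median -0.01), where 49.4% and 46.7% of all genes were above 0, with none called by edgeR and 0 at an unadjusted p under 0.05. Single libraries turned the RS411 direction. For sh2 the count above 0 was 0 without sh2 replicate 3 and 17 without sh2 replicate 2 (medians -0.11 and 0.03). For sh5 it was 4 without NT replicate 2 and 19 without NT replicate 3 (medians -0.10 and 0.07). With the replicate block 6 of 25 were above 0 with sh2 (median -0.04) and 11 with sh5 (median -0.01). PES1 is an example of the line difference: its sh2 change was 0.23 in SEM and -0.60 in RCH, and it had 109.9, 104 and 84.0 CPM with sh2 against 115, 169.9 and 168 CPM with NT in RCH.

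Other genes of the same pathways were counted from lists. In SEM with sh2, where 27.9% of all genes were called and 13.5% were called higher, 8 of 33 further small subunit processome genes were called, all higher, among them PWP2 (0.41 ± 0.09), UTP11L (0.33 ± 0.08) and IMP4 (0.20 ± 0.06). Of 37 further large subunit genes 8 were called, all higher, among them SURF6, GNL2 and RRP1. Of 20 MYC partners and turnover factors 6 were higher and 1 lower, and the ATPase RUVBL2, a MYC cofactor, rose by 0.32 ± 0.06 with sh2 and by 0.34 ± 0.06 with sh5. Of 14 RNA polymerase I genes 4 were higher and 1 lower: TTF1, the transcription termination factor, fell by 0.50 ± 0.06, and TWISTNB, a polymerase subunit, rose by 0.39 ± 0.06. Of 35 other MYC targets 2 were higher, the folate carrier SLC19A1 (0.48 ± 0.07) among them, and 2 lower, NAMPT and BCAT1. Of 20 proliferation genes 0 were higher and 2 lower, CDK1 and BUB1. With sh5 in SEM, where 21.3% of all genes were called, 2 small subunit genes were higher, 4 large subunit genes were higher and 1 lower, and 3 MYC partners were higher and 1 lower. Among the lower ones, MXI1, another MAX-binding repressor, fell by 0.62 ± 0.13 (adjusted p = 0.00727), and MAK16 of the large subunit fell by 0.43 ± 0.07 (adjusted p = 0.000363). In Reh, 697, RS411 and RCH, no gene of these lists was called against EV or NT by edgeR or limma, and in RCH with sh2 15 of 34 other MYC targets had an unadjusted p under 0.05, with a median of -0.47.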

How the data were processed

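Total RNA was extracted with RNeasy columns and sequenced as ribosomal-depleted, stranded libraries of 54-base reads, per the labels' protocols. Trimmomatic, STAR, featureCounts and the build hg19 appear in the submitters' processing notes; no version or strand setting is stated there. The deposited count tables hold raw reads per gene for Reh, RS411, RCH and SEM. For 697 the deposited values are a signal, gene counts that the authors divided by a factor per library; 100% of the values above 0 came out as whole reads within 0.001 of a read. Reh counts took symbols from the authors' second Reh table by identical reads (15793 of 15793 genes with at least 50 reads). In each hairpin line 27 gene names had become dates (0.214% to 0.247% of reads), and 6 columns of per-sample values that match no sample were not used.

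Counts were scaled by TMM, low genes were dropped by filterByExpr, and all arms of a line were fitted with edgeR 4.0.16 (quasi-likelihood F-test, robust). For 697, limma 3.58.1 was run on log2(normalized count + 1) of genes with a mean of at least 10; because of the added 1, low genes show smaller fold changes there. A single edgeR fit joined the 3 hairpin lines. P-values were adjusted over all genes tested (Benjamini-Hochberg), and a call is an adjusted p under 0.05. DESeq2 1.42.0, other filters, scalings and pseudocounts, compared arms alone, a replicate block and each library left out were alternatives. Scripts were tested on simulated data; R 4.3.3 and Python 3.11.15 were used.

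Same-numbered libraries of different arms deviated together in 697 (correlation of deviations 0.423 to 0.604), RS411 (0.137 to 0.347) and SEM (0.121 to 0.311), all above 0.1, and the pairing comes from the titles' replicate numbers. In Reh the correlations were 0.56 to 0.599, but 2 replicates per arm did not meet the rule for pairing. Blocked calls of members stand beside the results they change for RS411 and SEM against NT, Reh EK and the joint mean response. Those of RCH and of the joint difference between lines are counted with the other alternatives at the end. Both hairpins of a line, and both NSD2 constructs, share their controls. The share of all genes with every hairpin library below every NT library, or with an overexpression arm apart from EV in Reh, was not counted. The members and lists were chosen with earlier results of these data known. Values in every library are given for the 7 network genes. For each comparison with EV or NT, up to 6 called members per direction with the largest change are named, or, where none was called, up to 3 per direction with the smallest p. Of other lists up to 3 called genes with the smallest adjusted p are named. Further genes (NOP14, PES1, POLR1B, NOLC1, RRS1 and others) were named after their values were seen.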

Additional observations from a re-analysis of the deposited data

Results flagged for a closer look

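For 6 members the sh2 response differed between RS411, RCH and SEM, in the joint edgeR fit with p-values adjusted over all genes. MYC differed at an adjusted p of 0.00250, with log2 changes of -0.004 in RS411, -0.70 in RCH and 0.09 in SEM. It stayed under 0.05 in all 21 alternatives (highest adjusted p = 0.00838). PES1 differed at 0.0192, with -0.003 in RS411, -0.60 in RCH and 0.23 in SEM, and was called in 18 of 21 alternatives. MXD1 differed at 0.0322, with 0.31 in RS411, 1.18 in RCH and 0.91 in SEM, and was called in 6 of 21. TFRC differed at 0.0418, with -0.13 in RS411, -0.79 in RCH and 0.25 in SEM, and was called in 9 of 21. FBL differed at 0.0420, with -0.08 in RS411, -0.43 in RCH and 0.18 in SEM, and was called in 12 of 21. NOP16 differed at 0.0443, with -0.05 in RS411, -0.87 in RCH and 0.21 in SEM, and was called in 7 of 21. In MYC, PES1, TFRC, FBL and NOP16 RCH lay below 0 and SEM above it, and MXD1 was above 0 in every line. Over the alternatives the adjusted p reached 0.125 for MXD1, 0.113 for TFRC, 0.102 for FBL, 0.128 for NOP16 and 0.0656 for PES1.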

How the results depend on the processing

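Of 7665 member values under an alternative 7328 kept their direction and call or moved within their spread. The median of the 25 biogenesis members changed sign when single libraries of Reh, RS411 or RCH (sh5) were left out. In 697 it changed sign for EK against WT, from -0.05 to 0.04 without EK replicate 2. Counts of calls moved with the tool, the filter and the replicate block, and the cause was not tested. Counts of all genes called are given first by comparison.

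In Reh, EK against EV (34 genes) gave 210 with DESeq2, 329 with no low-count filter, 1027 with the replicate block and 7 with the compared arms alone; WT against EV (35) gave 139, 237, 629 and 8 in the same order, and EK against WT (0) gave 2, 18 and 71 with the first 3. In 697, EK against EV (28) gave 17 at a minimum mean of 50, 96 with DESeq2 on recovered reads, 161 with the block, 189 with edgeR on recovered reads and the block, and 9 with the compared arms alone. WT against EV (31) gave 18, 72, 176 and 205 with the first 4 of these, and EK against WT (0) gave 2 with DESeq2. In RS411, DESeq2, no filter, the block and the compared arms alone gave 929, 1281, 2495 and 66 for sh2 against NT (286), 314, 578, 929 and 197 for sh5 against NT (82), and 422, 779, 1555 and 47 for sh2 against sh5 (99). In RCH, DESeq2, no filter, the block and leaving out replicate 1 of both NT and sh5 gave 1077, 1937, 1623 and 3118 for sh2 against NT (239), 91, 199, 46 and 1 for sh5 against NT (4), and 197, 704, 343 and 2267 for sh2 against sh5 (0). In SEM the block gave 5591 for sh5 against NT (3623) and 3532 for sh2 against sh5 (2105). In the joint fit no filter and the block gave 3172 and 3223 genes that differed between lines with sh2 (1639) and 1108 and 1521 with sh5 (424), and the block gave 2688 genes for the mean sh5 response (1106).

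Members called moved as follows. With the block Reh EK gave 2 (MYC and BOP1), where the rule for pairing was not met with 2 replicates, RS411 sh2 gave 2 and RS411 sh2 against sh5 gave 3 (MXD3, TFRC and RRP9). RCH sh2 (0) gave 2 with DESeq2, 12 with no filter, 5 with the block, 1 with the compared arms alone and 29 without replicate 1 of NT and sh5; RCH numbers did not pair by the rule (correlations -0.0689 to 0.635). RCH sh2 against sh5 (0) gave 6 with no filter and 24 without those libraries. SEM sh2 (14) gave 22 with the block; SEM sh5 (5) gave 9 with no filter and 14 with the block; SEM sh2 against sh5 (1) gave 3 with no filter, 9 with the block and 3 with the compared arms alone. In the joint fit the mean sh2 response (3) gave 8 with no filter and 10 with the block, the difference between lines (6) gave 23 and 16, the mean sh5 response (1) gave 2 with RLE factors and 2 with the block, and the sh5 difference (0) gave 2 with the block. The block changed no call of a member in 697.

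Leaving out single libraries gave 0 to 0 members in Reh and 697. It gave 0 to 2 in RS411 sh2, 0 to 0 in RS411 sh5 and 0 to 0 between them; 0 to 3 in RCH sh2, 0 to 0 in RCH sh5 and 0 to 1 between them; 10 to 17 in SEM sh2, 3 to 11 in SEM sh5 and 0 to 2 between them. The joint fit gave 2 to 16 for the mean sh2 response, 1 to 25 for its difference between lines, 1 to 2 for the mean sh5 response and 0 to 0 for its difference. All genes called ranged over 0 to 4, 0 to 8 and 0 to 0 in Reh (EK, WT, EK against WT); 18 to 24, 18 to 29 and 0 to 1 in 697; 11 to 1560, 5 to 76 and 20 to 821 in RS411 (sh2, sh5, sh2 against sh5); 15 to 620, 0 to 2 and 0 to 32 in RCH; and 3915 to 4832, 2648 to 3899 and 1474 to 1671 in SEM. The joint ranges were 2239 to 3967 and 1064 to 3865 with sh2 and 889 to 1326 and 312 to 541 with sh5. With 2 or 3 libraries per arm, a leave-one-out fit that leaves 1 library in an arm takes its spread from the other arms.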
